A study of Homo sapiens with 95 samples.

Results

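The proteasome subunit genes are the symbols of the PSMA, PSMB, PSMC, PSMD, PSME, PSMF and PSMG series followed by a number that had a mean count of at least 1 over 95 libraries. Of 48 such symbols among 27978 listed, 44 met this mean. The testis subunit PSMA8 and the interferon-induced catalytic subunits PSMB8 and PSMB9 were listed at 0 in every library, and the thymic subunit PSMB11 had a mean count of 0.02. The rule uses only the symbol and the mean count, not a difference between groups. It was, however, set with earlier results of these data known.

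The proteasome degrades proteins that carry ubiquitin chains. Its 20S core is a barrel of alpha rings, which gate the entrance, around beta rings, in which PSMB5, PSMB6 and PSMB7 carry the cutting sites. PSMB8, PSMB9 and PSMB10 replace these in the immunoproteasome. The 19S cap holds a ring of PSMC ATPases that unfold and thread the substrate, and PSMD subunits that receive and remove ubiquitin. PSME genes encode alternative caps, PSMF1 an inhibitor, and PSMG genes with PSMD5, PSMD9 and PSMD10 chaperones of assembly. When the proteasome is impaired, the transcription factor NRF1 (NFE2L1) raises its genes. The related factor NRF2 (NFE2L2) responds to electrophiles and oxidants and is also known to bind proteasome promoters through antioxidant response elements.

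All libraries came from AALE cells, an immortalized human bronchial epithelial line, profiled by sparse full length (SFL) RNA-seq. Cells had CRISPR knockout of FAT1 or CDKN2A, with GFP cells (a Cas9-GFP plasmid without guide RNA) as control, or overexpression of NRF2, FGFR1, NRG1 or PIK3CA, with HCRED cells (vector with the reporter HcRed) as control. Each of the 8 genotypes received cigarette smoke condensate (CSC, 24 µg/ml), the combustion product benzo[a]pyrene (BaP, 173 µM), the tobacco nitrosamine NNK (490 µM) or the vehicle DMSO, with 3 libraries per combination and 2 for FGFR1 with CSC. The study describes the replicates as biological, in cells of each line plated for exposure. Whether a line was 1 clone, and whether replicates were grown apart before plating, is not given in the sources used here, and p-values measure the spread between these libraries. The counts came from bulk RNA, in which fewer cells of a kind and less RNA per cell cannot be told apart.

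Library totals ran from 287446 to 2116383 counted reads with a median of 934235, and no libraries were identical. Medians by treatment ran from 753702 for NNK to 1051108 for DMSO. Normalised CPM, in which library totals are scaled by TMM (trimmed mean of M values), followed the labels for the altered genes. NFE2L2 stood at 1317 to 1785 in the NRF2 line and 191 to 247 in HCRED. FAT1 stood at 66.5 to 129 in its knockout and 260.0 to 451 in GFP, and CDKN2A at 35.1 to 66.8 and 79.1 to 147. FGFR1, NRG1 and PIK3CA were each above all HCRED libraries in the line that overexpresses them. Some libraries of other lines also held these transcripts above their control. Before normalisation the highest NRG1 value was 369.5 CPM in FGFR1, 249.3 in CDKN2A and 151.6 in NRF2 cells. The medians there were 25.9, 31.1 and 21.2, against 17.5 in HCRED and 21.0 in GFP cells. In its own line NRG1 was at 4756.7 or more. PIK3CA was at 141.5 to 194.3 in CDKN2A and 63.3 to 100.3 in GFP cells, against 451.6 or more in its own line. The source of these reads was not tested. The basal epithelial keratin KRT5 was at 1605 CPM or more in every library. Of 8 markers of other cell types, PTPRC, PECAM1, VWF, COL3A1 and ALB had median levels of 0.0, while CD68 (median 13.6 before normalisation), COL1A1 (25.9) and DCN (1.18) were counted.

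Promoter sequences are shown because NRF2, which 1 of the lines overexpresses, binds antioxidant response elements. RefSeq promoters (GRCh38.p14) matched 38 members, and the 250 bases before each start were searched on both strands for TGACNNNGC, the core of the antioxidant response element, and for CCAAT, the box bound by NF-Y. The core was present in 10 member promoters (26.3%) and in 10.9% of 34786 promoters of the same length. CCAAT was present in 16 (42.1%) and in 32% of all promoters. The core occurred in 4 of 6 matched chaperone promoters, in 3 of 5 of activators and the inhibitor, in 2 of 10 of 19S non-ATPases, in 1 of 4 of the constitutive beta ring, and in 0 of 6 both for the alpha ring and for the ATPases. Member promoters had a median GC content of 61.8%, and all promoters 58.0%. The promoters printed, 5′ to 3′ on the strand of the gene and with matches to either motif in capitals, are those of PSMB3 (chr17:38752491-38752740, plus strand), a beta subunit that rose under all 3 chemicals, PSMD3 (chr17:39980557-39980806, plus strand), a scaffold subunit of the 19S lid, PSMD9 (chr12:121888540-121888789, plus strand), an assembly chaperone with the core on both strands, and PSMB5 (chr14:23035221-23035470, minus strand), the chymotrypsin-like catalytic subunit.
PSMB3: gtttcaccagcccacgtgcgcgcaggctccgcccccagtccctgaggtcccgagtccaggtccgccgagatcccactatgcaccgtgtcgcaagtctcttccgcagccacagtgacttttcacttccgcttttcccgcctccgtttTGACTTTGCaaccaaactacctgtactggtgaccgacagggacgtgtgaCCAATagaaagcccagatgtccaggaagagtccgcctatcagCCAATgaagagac
PSMD3: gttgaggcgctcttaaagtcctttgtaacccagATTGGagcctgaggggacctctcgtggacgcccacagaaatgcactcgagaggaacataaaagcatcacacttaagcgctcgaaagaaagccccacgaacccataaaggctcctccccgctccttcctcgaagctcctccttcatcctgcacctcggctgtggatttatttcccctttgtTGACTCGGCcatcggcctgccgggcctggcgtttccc
PSMD9: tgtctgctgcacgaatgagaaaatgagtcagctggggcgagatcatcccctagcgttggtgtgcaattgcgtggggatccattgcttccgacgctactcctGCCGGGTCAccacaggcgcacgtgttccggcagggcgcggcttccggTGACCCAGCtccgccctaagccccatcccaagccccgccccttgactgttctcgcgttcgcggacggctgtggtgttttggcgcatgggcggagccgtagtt
PSMB5: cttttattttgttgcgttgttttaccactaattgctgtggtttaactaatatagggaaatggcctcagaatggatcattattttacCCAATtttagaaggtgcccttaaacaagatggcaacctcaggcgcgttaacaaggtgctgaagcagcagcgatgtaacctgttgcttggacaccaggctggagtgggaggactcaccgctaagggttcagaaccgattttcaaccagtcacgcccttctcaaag
The core of PSMB3 lay 104 to 96 bases before the start and that of PSMD3 37 to 29 bases before it. PSMB5 held no core in this window and a single CCAAT. A match is only a match of letters, and binding was not measured.

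The 44 genes together took 0.575% of counted reads, from 0.494 to 0.731% in single libraries. Per kilobase of transcript, the highest mean levels were 206.5 CPM/kb for PSMA7, an alpha subunit, 184.7 for PSMB1, a structural beta subunit, and 165.1 for PSMD2, the main 19S scaffold. The lowest were 1.04 for PSMC1, 8.22 for PSMB10 and 14.7 for PSMG4. The 9708 genes whose counts averaged 10 or more had a median of 16.1, and 41 members lay above it. By role, median levels were 108 CPM/kb for the alpha ring, 100 for the constitutive beta ring, 80.1 for 19S non-ATPases, 51.7 for ATPases, 45.9 for activators and the inhibitor and 26.8 for chaperones. Core and cap subunits thus did not have equal counted levels per length. PSMC1 has 13 named pseudogenes and a mean count of 4.23, and its level is uncertain because reads could be shared with those copies. In all, 17 members have named pseudogenes, and PSMA3, PSMD6 and PSMG3 have antisense genes whose reads cannot be told apart from theirs where strand was not used in counting. The 0 of PSMB8 and PSMB9 sets no limit on their RNA, since 124 of 138 protein-coding genes in the same major histocompatibility window of chromosome 6 (89.9%) also had mean counts below 1, against 32.2% of genes elsewhere on that chromosome.

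Under CSC, all 7 constitutive beta subunits were higher than under DMSO over the 8 genotypes. They rose by 0.20 (PSMB1) to 0.50 (PSMB3) on the log2 scale, with a median of 0.36. PSMB3 ran from 40.3 to 88.4 normalised CPM with a median of 58.4 in 24 DMSO libraries, and from 61.9 to 133.6 with a median of 81.2 in 23 CSC libraries. These ranges overlap. PSMB3 was higher in 8 of 8 genotypes (log2 fold change 0.50, SE 0.064, limma-voom adjusted p = 1.78e-11). PSMB7, the trypsin-like catalytic subunit, was at 40.4 to 91.4 CPM under DMSO and at 68.5 to 136.3 under CSC, higher in 8 of 8 genotypes (0.49, SE 0.057, adjusted p = 3.3e-13). PSMB2, the steadiest beta subunit between groups, was at 167.8 to 247.2 CPM under DMSO and 208.4 to 317.2 under CSC (0.30, SE 0.037, adjusted p = 4.01e-12). The call share over all 14384 genes tested was 55.1%, with 28% called higher and 27.1% lower. Among the 44 members 28 were called, 18 higher and 10 lower, and the median member log2 fold change was 0.067, against 0.0035 for all genes.

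Under BaP, 26 members were called, 18 of them higher and 8 lower, where 51% of all genes were called, 26.1% higher and 24.9% lower. The 7 constitutive beta subunits were again all called higher (median 0.29), led by PSMB3 at 0.42 (SE 0.065, adjusted p = 1.48e-08), PSMB6 at 0.36 and PSMB5 at 0.35. CSC, BaP and NNK were compared with the same DMSO libraries, so these are not independent counts. Under NNK, 27 members were called, but 10 were higher and 17 lower (all genes 51.8%, 26.1% higher and 25.7% lower), and 3 beta subunits passed: PSMB3 (0.30), PSMB6 (0.22) and PSMB2 (0.11).

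Cell type markers also moved with the chemicals and between genotypes. The summed level of 6 bronchial epithelial markers ran from 4150 to 9267 CPM under DMSO, 3265 to 7126 under CSC, 3295 to 7649 under BaP and 4649 to 10780 under NNK. Of these markers 1 rose and 4 fell under CSC, 1 rose and 5 fell under BaP, and 3 rose and 1 fell under NNK. The summed level of the 8 markers of other cell types ran from 15.5 to 53.3 CPM under DMSO, 38.4 to 72.9 under CSC, 16.8 to 77.7 under BaP and 20.5 to 64.2 under NNK, mostly from COL1A1 and CD68. Of the 3 that could be tested, 3 rose under CSC (median 0.93), 2 under BaP and 2 under NNK. Between genotypes the epithelial sum ran from 6268 to 8704 in HCRED, 3910 to 5096 in NRG1 and 4141 to 4993 in PIK3CA cells. In FGFR1 it was 4695 to 7576 and in NRF2 6102 to 10780. In GFP it was 4971 to 6426, in FAT1 3295 to 5099 and in CDKN2A 3265 to 5344. Of the 6 markers, 1 rose and 4 fell in FAT1 and in FGFR1, 1 and 5 in PIK3CA and 0 and 5 in NRG1. In CDKN2A 2 rose and 3 fell, and in NRF2 3 and 1, each against its control. The part of these markers in the proteasome values was not tested.

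In single libraries, the constitutive beta ring was summarised as the mean over its 7 genes of log2 CPM minus each gene's mean over all libraries. In HCRED cells this was -0.30, -0.21 and -0.36 under DMSO and 0.094, 0.053 and 0.13 under CSC. In GFP cells it was -0.42, -0.28 and -0.42 under DMSO and 0.0050, 0.11 and 0.078 under CSC. Every CSC library lay above every DMSO library of its genotype in 8 of 8 genotypes, and so did every BaP library, while for NNK this held in 3 of 8. CSC libraries all lay above the NNK libraries in 7 of 8. For the alpha ring, CSC libraries all lay above DMSO in 0 genotypes and all below it in 4, BaP libraries all below it in 4, and NNK libraries all below it in 7. After the GC correction described next, these last counts were 0, 1 and 2. The corrected alpha ring mean was above DMSO in 7 of 8 genotypes under CSC, 4 under BaP and 2 under NNK. As counted this held in 0, 1 and 0.

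**Figure D1:**
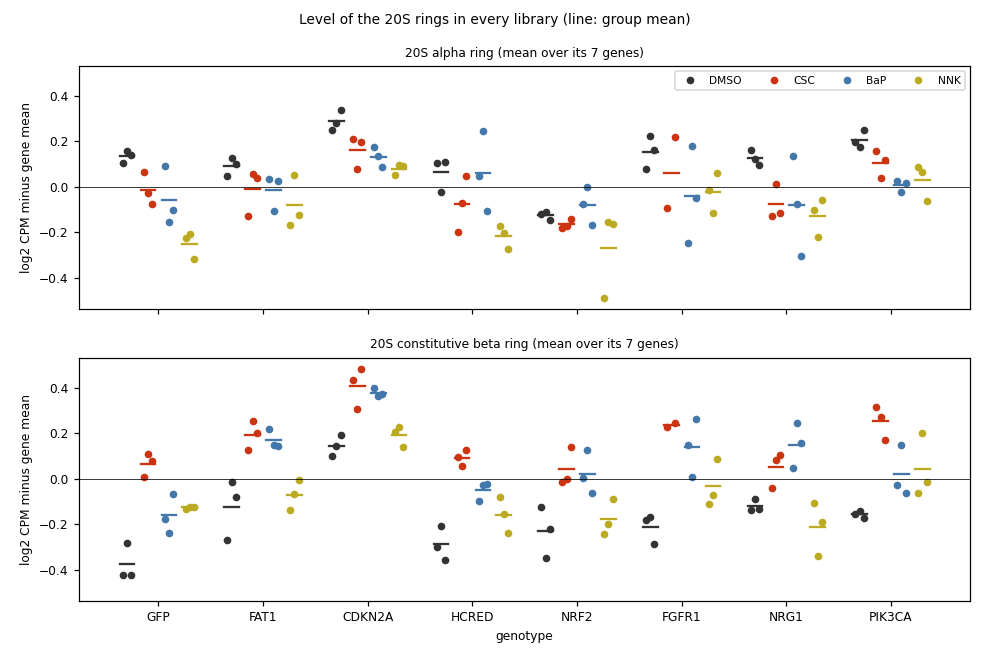
Mean level of the 7 alpha ring genes (top) and of the 7 constitutive beta ring genes (bottom) in each of 95 libraries, as log2 CPM minus the gene mean (vertical axis), by genotype (horizontal axis) and treatment (colour); points are libraries and short lines group means. In the lower panel the CSC and BaP points stand above the DMSO points in all 8 genotypes, while in the upper panel most treated points lie level with or below DMSO.

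GC content of the transcript moved with the difference of each chemical from DMSO. Across the 44 members the log2 fold change correlated with the percentage of G and C at Pearson r = 0.73 for CSC, 0.79 for BaP and 0.77 for NNK, and across all 13487 genes with a known GC content at Spearman rho of 0.70 to 0.77. The points of these correlations are genes of the same libraries, not replicates. Of the 19 members at 50% GC or more, 13 rose and 1 fell under CSC, while of the 25 below 50%, 5 rose and 9 fell. The libraries themselves differed in this way: the slope of log2 CPM on GC content, per 10 percentage points, was -0.399 to -0.096 in 24 DMSO libraries and -0.102 to 0.235 in the 71 libraries of treated cells. The source of that slope was not tested. A fit with a trend on GC content and length removed from every library is therefore given beside the main chemical results.

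**Figure D2:**
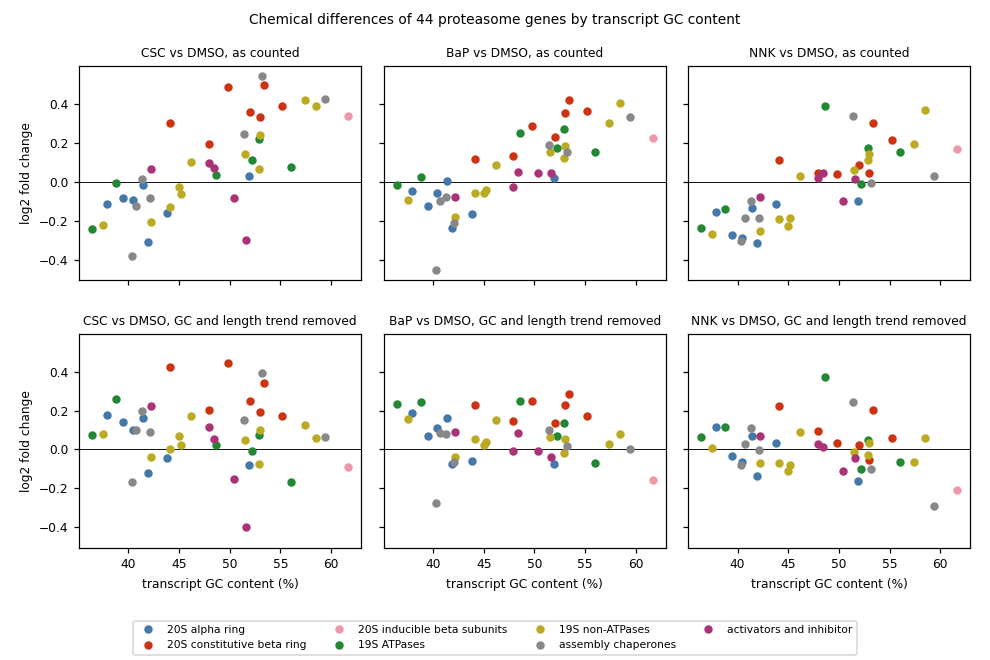
Log2 fold change of each of the 44 genes against DMSO (vertical axis) by the GC percentage of its transcript (horizontal axis), coloured by role, as counted (top) and with a trend on GC content and length removed per library (bottom). The upward trend of the top row is absent from the bottom row, where the constitutive beta ring (red) stays above 0 for CSC and BaP.

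With this trend removed, the call share of all genes fell to 32.1% for CSC, 23.3% for BaP and 14.7% for NNK, and the members called were 22 (18 higher), 17 (16 higher) and 6 (3 higher). The beta ring kept 7 of 7 calls under CSC (median 0.25) and under BaP (median 0.23), and 2 of 7 under NNK. The separation of CSC and BaP from DMSO in every genotype was also kept in 8 of 8. PSMB7 stood at 0.44, PSMB2 at 0.42 and PSMB3 at 0.34 under CSC after correction. After correction 4 members were lower under CSC: PSMA4 and PSME1, which were lower as counted too, and PSMC3 (-0.17) and PSMD2 (-0.075), which were not called as counted. PSMD12 and PSMA5 changed from lower as counted to higher after correction. Under BaP, PSMB3 stood at 0.28, PSMB5 at 0.23 and PSMB6 at 0.17.

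As counted, the alpha ring did not move with the beta ring. In that fit 0 of 7 alpha subunits were higher and 3, 3 and 6 were lower under CSC, BaP and NNK. PSMA4 had a median of 253.2 CPM under DMSO, 198.0 under CSC, 206.8 under BaP and 192.1 under NNK, with log2 fold changes of -0.31, -0.24 and -0.31. After GC correction it was -0.12 (adjusted p = 0.00719), -0.075 (adjusted p = 0.144) and -0.14 (adjusted p = 0.00535), while PSMA1, PSMA2 and PSMA5 were called higher under CSC. The corrected alpha counts were 3 higher and 1 lower for CSC, 3 and 0 for BaP, and 0 and 2 for NNK. Their direction thus depended on the correction under CSC and BaP. Under NNK both fits gave only lower calls.

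In the 19S cap, 5 of 11 non-ATPases were higher and 3 lower under CSC, 6 and 2 under BaP, and 4 and 5 under NNK. After correction these were 3 and 1, 2 and 0, and 0 and 0. PSMD3, the lid scaffold, was at 129.8 to 282.5 CPM under DMSO and 172.9 to 322.5 under CSC. Its log2 fold changes were 0.39, 0.40 and 0.37 for the 3 chemicals, each with adjusted p of 4.19e-14 or less, and 0.057, 0.081 and 0.061 after GC correction, none called. PSMD3 has 58.5% GC. PSMD4, the ubiquitin receptor, had log2 fold changes of 0.24 under CSC (adjusted p = 5.47e-06), 0.18 under BaP and 0.14 under NNK, and 0.099 (adjusted p = 0.091), 0.052 and 0.032 after correction. Among the ATPases, 2 of 6 rose and 1 fell under CSC, 3 and 0 under BaP, and 2 and 2 under NNK, and after correction 1 and 1, 3 and 0, and 0 and 0.

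Among chaperones, PSMD10 (gankyrin) fell by 0.38, 0.45 and 0.30 on the log2 scale under CSC, BaP and NNK, from a median of 44.6 CPM under DMSO to 34.8, 34.4 and 34.9. After correction only the BaP difference was called (-0.28, adjusted p = 0.00173). PSMG3 rose by 0.42 under CSC as counted and stood at 0.062 (adjusted p = 0.605) after correction. PSMG4, which pairs with PSMG3 during assembly of the alpha ring, was at 3.68 to 18.9 CPM under DMSO and 6.84 to 24.4 under CSC, with a log2 fold change of 0.54 (SE 0.13, adjusted p = 0.000197) and 0.39 after correction. PSMD9 rose by 0.34 under NNK and by 0.24 after correction.

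Of the alternative caps, PSME1, a subunit of the interferon-induced PA28 activator, fell under CSC and was not called under BaP (0.045) or NNK (0.013). It was at 41.4 to 100.6 CPM with a median of 60.7 under DMSO and at 14.8 to 71.4 with a median of 56.4 under CSC (-0.30, SE 0.064, adjusted p = 3.34e-05). After correction the difference was -0.40 (adjusted p = 8.5e-08). In HCRED cells alone, 3 CSC against 3 DMSO libraries gave 0.022 (95% interval -0.32 to 0.36). In NRF2 cells alone the value was -0.27 (95% interval -0.64 to 0.098), and neither was called. PSME1 was also lower under CSC than under NNK (-0.31) and than under BaP (-0.34, adjusted p = 1.14e-05). Its partner PSME2 was called under none of the 3 chemicals. PSMB10, the only measured immunoproteasome subunit, had a mean count of 7.6 and an estimate of 0.34 under CSC (95% interval 0.0060 to 0.67, adjusted p = 0.0791), and of -0.090 after correction.

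The chemicals were also compared with each other, at unequal doses, in contrasts chosen after seeing the data. The member differences between CSC and NNK correlated with GC content at 0.18. CSC exceeded NNK for 18 members and was below it for 1, where 23.7% of all genes were called, 12% higher and 11.7% lower. The median member difference was 0.10, against -0.0024 for all genes. All 7 constitutive beta subunits were higher under CSC than under NNK, from 0.15 for PSMB1 to 0.44 for PSMB7 (adjusted p = 5.45e-10), and 5 of 7 after correction. With correction 14 members were called, 13 higher, where 24.9% of genes were called. BaP exceeded NNK for 14 members and fell below it for 0, where 11.8% of genes were called, 5.37% higher and 6.4% lower. With correction these were 9 (all genes 11.4%). PSMB5 was higher under BaP than under NNK (0.31, SE 0.064, adjusted p = 0.000142), as was PSMB7 (0.25), and after correction they stood at 0.28 and 0.22. The BaP to NNK count rested on single replicate numbers, with 3 calls without replicate 1, 6 without replicate 2 and 9 without replicate 3. CSC and BaP differed for 8 members, 5 higher under CSC (all genes 16.5%, 8.83% higher and 7.69% lower), and for 6 with correction, 5 of them higher (all genes 17.8%). PSMB2 (0.19) and PSMB7 (0.20) were higher under CSC, while PSMB5 differed by -0.021 (95% interval -0.14 to 0.10).

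Whether the chemical response differed between genotypes was tested for every gene with a moderated F test of 7 contrasts. No member was called for CSC, BaP or NNK (all genes 0.813%, 0.202% and 0.0626%). At an unadjusted p under 0.05 there were 5, 2 and 3 members in limma-voom, 3, 3 and 4 in edgeR and 3, 2 and 2 in DESeq2, with 0 adjusted calls by each tool. PSMB3 had the largest F for CSC (3.43, adjusted p = 0.136), with estimates from 0.018 to 0.94 among the genotypes.

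In HCRED cells alone, 3 CSC against 3 DMSO libraries gave 11 called members, 8 higher and 3 lower (all genes 23.8%), among them 5 of 7 constitutive beta subunits. PSMB5 was at 56.8, 56.2 and 54.1 CPM under DMSO and 92.8, 66.9 and 75.4 under CSC. The groups do not overlap, and the log2 fold change was 0.46 (SE 0.16, adjusted p = 0.0273), a call that was lost in 4 of 6 fits without 1 library (adjusted p up to 0.183) and with GC correction (0.28, adjusted p = 0.339). In NRF2 cells alone, 2 members were called (all genes 9.1%), both beta subunits. PSMB7 rose from 68.6, 40.4 and 70.9 CPM to 98.1, 84.9 and 89.5 (0.62, adjusted p = 0.0074), and PSMB4 from 99.2, 69.8 and 81.4 to 94.1, 126.6 and 131.2 (0.48, adjusted p = 0.021). Without the DMSO library of replicate 2, which was lowest for both, PSMB7 stood at 0.38 (adjusted p = 0.18), and the PSMB4 call was lost in 4 of 6 fits without 1 library (adjusted p up to 0.171). With GC correction PSMB7 kept its call and PSMB4 did not. PSMB5 in NRF2 cells was at 59.3, 56.4 and 61.6 CPM under DMSO and 64.9, 56.1 and 74.8 under CSC (0.15, 95% interval -0.20 to 0.49).

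In NRF2 overexpressing cells, over all treatments, 12 members were called, 5 higher and 7 lower, where 22% of all genes were called. With GC correction 4 were higher and 5 lower (all genes 22.4%). None of the 7 constitutive beta subunits passed. PSMB5 differed from HCRED by -0.030 (95% interval -0.21 to 0.15) and PSMD4 by -0.017 (95% interval -0.16 to 0.12). Of the 10 members with an antioxidant response element core, 3 were called: PSMD12 (-0.18) and PSME4 (-0.17) were lower and PSMD5 (0.20) was higher. The largest difference was in PSMA7, which stood at 73.8 to 129.4 CPM (median 107.4) in 12 NRF2 libraries and at 179.4 to 240.9 (median 207.4) in 12 HCRED libraries. The groups do not overlap, and the log2 fold change was -1.01 (SE 0.061, adjusted p = 4.24e-31), negative in 4 of 4 treatments. The lid deubiquitinase PSMD14 (-0.33) and PSMD10 (-0.40) were also lower, and PSMD8 was higher (0.27).

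PSMA7 was also low in PIK3CA cells, at 112.8 to 149.0 CPM (-0.71, SE 0.055, adjusted p = 1.17e-22), and high in NRG1 cells, at 219.1 to 325.4 (0.38, adjusted p = 2.24e-09). All these lines share the HCRED control. The gene lies on chromosome 20 (hg19 60711789 to 60718496, minus strand), and its neighbours moved with it. The other 44 genes within 5 Mb had median log2 fold changes of -0.83 in NRF2, -0.93 in PIK3CA and 0.26 in NRG1 cells, while all genes of chromosome 20 had medians of 0.13, 0.040 and -0.038. The contribution of position to the PSMA7 values was not tested.

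**Figure D3:**
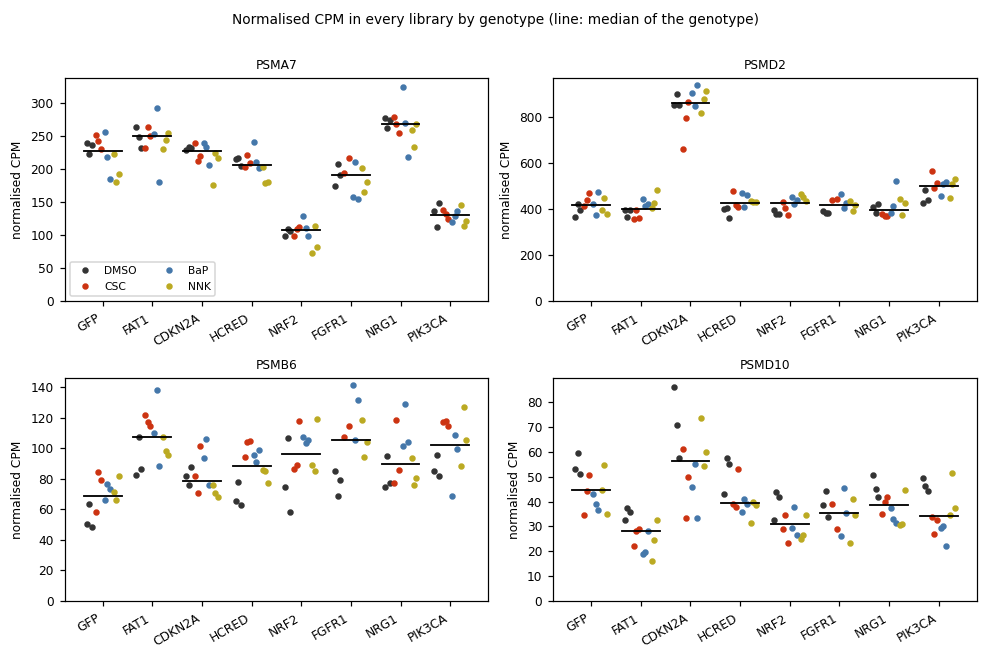
Normalised CPM (vertical axes, from 0) of PSMA7, PSMD2, PSMB6 and PSMD10 in each library by genotype (horizontal axes) and treatment (colour), with the median of each genotype as a line. PSMA7 is low in NRF2 and PIK3CA cells under all 4 treatments, and PSMD2 is high in CDKN2A knockout cells.

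Knockout of CDKN2A, which encodes the cell cycle inhibitor p16 and the p53 stabiliser ARF, came with the largest median member difference of the 9 comparisons. Of 44 members 28 were called, 23 of them higher and 5 lower, where 58.7% of all genes were called, and the median member log2 fold change was 0.17 against 0.00086 for all genes. Higher were 6 of 7 constitutive beta subunits (median 0.48), 9 of 11 19S non-ATPases (median 0.31), 3 of 7 alpha subunits and 2 of 6 ATPases. PSMD2 stood at 660.4 to 940.1 CPM in 12 knockout libraries and at 364.4 to 475.1 in 12 GFP libraries. These do not overlap, and the log2 fold change was 1.03 (SE 0.040, adjusted p = 1.6e-50), positive in 4 of 4 treatments. PSMD3 (0.84), PSMD11 (0.74), PSMB1 (0.72), the nuclear activator PSME4 (0.68), PSMB4 (0.64) and PSMB5 (0.57) followed. PSME1 was lower, at 14.8 to 56.2 CPM against 51.0 to 88.3, ranges that meet only at their edges (-0.63, SE 0.094, adjusted p = 3.88e-09), as were PSMD5 (-0.43), PSMG2 (-0.35) and PSMB10 (-0.68, adjusted p = 0.023). The PSMB10 call was lost in 4 fits without a replicate or a treatment, with adjusted p up to 0.258. The GC-corrected fit called 24 members higher and 5 lower (all genes 59.5%).

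The neighbours of these genes did not all follow. The 47 other genes within 5 Mb of PSMD2 on chromosome 3 had a median of 0.72, with 95.7% above 0, against 0.031 for the chromosome. Around PSMD3 the median was 0.20, around PSMD11 0.17 and around PSMB1 0.27. PSMB5 and PSME1 lie in the same part of chromosome 14, where the median was -0.17, with PSMB5 higher and PSME1 lower by about as much. The contribution of position to these differences was not tested. Across the 44 members, the log2 fold change correlated with the neighbour median at Pearson r = 0.60 for CDKN2A, 0.81 for FAT1, 0.83 for NRF2, 0.73 for PIK3CA, 0.39 for FGFR1 and 0.40 for NRG1, a description over genes that share libraries and, in part, neighbours.

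**Figure D4:**
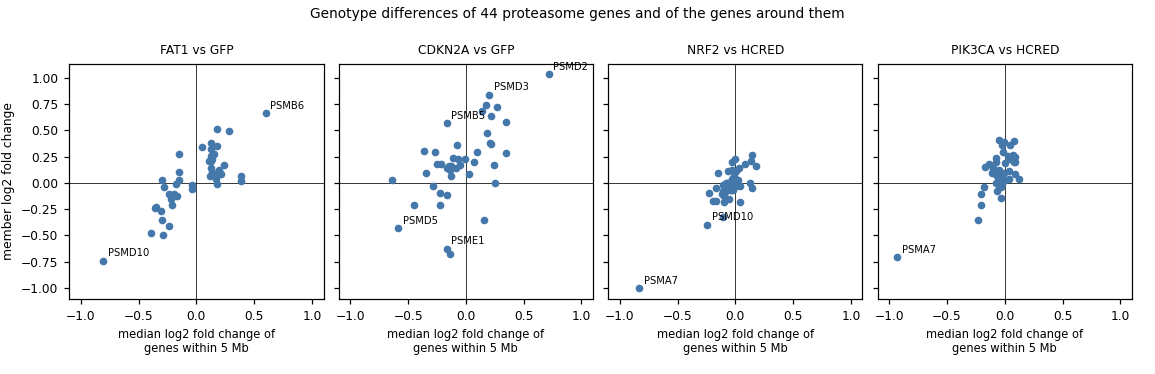
Log2 fold change of each of the 44 genes (vertical axis) against the median log2 fold change of the other genes within 5 Mb (horizontal axis) in 4 lines; points are genes. PSMA7 in NRF2 and PIK3CA cells, PSMD2 in CDKN2A and PSMB6 and PSMD10 in FAT1 knockout cells lie far out along both axes, while PSMB5 in CDKN2A knockout cells is high with a neighbour median below 0.

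In FAT1 knockout cells 22 members were called, 15 higher and 7 lower, where 49.1% of all genes were called. With GC correction 16 were higher and 7 lower (all genes 51.1%). FAT1 is an atypical cadherin. PSMB6, the caspase-like catalytic subunit, was at 82.3 to 137.9 CPM against 48.1 to 84.2 in GFP cells, which overlap only at their edges (0.66, SE 0.085, adjusted p = 2.77e-11). The 109 genes around it on chromosome 17 were all above 0, with a median of 0.60. PSMD10 was at 16.1 to 37.3 CPM against 34.8 to 59.5, again overlapping at the edges (-0.74, SE 0.10, adjusted p = 8.78e-10), and the 24 genes around it on chromosome X had a median of -0.80, against -0.50 for that chromosome. PSMD14 (-0.48, neighbours -0.39) and PSMD8 (-0.41) were lower too, while PSMD9 (0.51), PSMB7 (0.49) and PSMD4 (0.37) were higher. The beta ring gave 3 calls of 7, all higher, and the 19S non-ATPases 4 higher and 4 lower.

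FGFR1 cells had 10 called members, 8 higher and 2 lower (all genes 14.2%), with PSME1 first (0.44, SE 0.088, adjusted p = 6.63e-05), then PSMB7 (0.39) and PSMD5 (0.23), and with PSME4 lower (-0.22). With GC correction the balance turned, with 3 higher (PSME1, PSMB7 and PSMD5) and 4 lower (PSMA7, PSMD10, PSME3 and PSME4), where 16.3% of all genes were called. NRG1 cells had 9, 7 higher and 2 lower (all genes 12.5%), among them PSMG4 (0.55, adjusted p = 0.0466), a call that 8 alternatives did not keep, PSMB7 (0.30) and PSMA2 (-0.24). With correction these were 8 higher and 4 lower (all genes 14.6%). PIK3CA cells had 17, 14 higher and 3 lower (all genes 27.9%), and 14 and 4 with correction (all genes 28.9%). There 5 alpha subunits rose, from PSMA2 (0.20) to PSMA6 (0.36), while PSMA7 alone fell, and PSME2 (0.41), PSMB7 (0.40) and PSMC3 (0.37) rose.

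**Figure D5:**
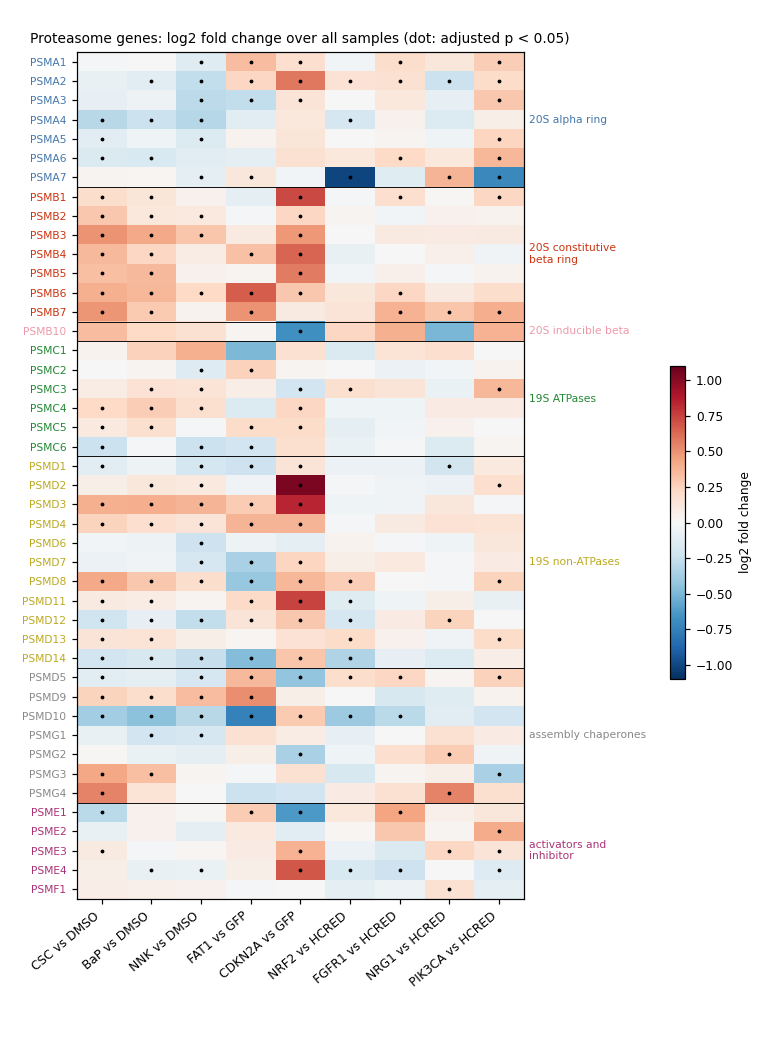
Log2 fold change (colour) of the 44 genes (rows, grouped by role) in the 9 comparisons over all samples (columns), with a dot where the limma-voom adjusted p is below 0.05. The constitutive beta ring is red in the CSC and BaP columns, and most non-ATPase rows are red in the CDKN2A column.

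With DMSO libraries alone, 3 against 3, fewer members passed. FAT1 knockout gave 13 (all genes 26.3%), led by PSMB6 (0.75), and CDKN2A knockout 16 (all genes 37.2%), with PSMD2 at 854.6, 901.2 and 856.0 CPM against 364.4, 423.5 and 396.9 in GFP (1.11, adjusted p = 1.27e-26). NRF2 gave 3 (all genes 7.16%), all lower. PSMA7 was at 98.2, 109.0 and 105.8 CPM against 216.1, 217.4 and 204.6 in HCRED (-1.03, adjusted p = 8.9e-11), PSMA4 at 213.8, 180.1 and 206.9 against 261.8, 223.2 and 274.4 (-0.35, adjusted p = 0.0136), and the chaperone PSMG1 at 52.2, 31.9 and 59.3 against 76.6, 64.8 and 64.9 (-0.57, adjusted p = 0.0404). The PSMA4 and PSMG1 calls were lost in 3 and 4 of the 6 fits without 1 library, to adjusted p of 0.135 and 0.385. FGFR1 gave 1 (all genes 1.86%), PSME1 at 81.1, 88.3 and 88.0 CPM against 56.8, 44.6 and 55.1 (0.68, adjusted p = 0.00678). NRG1 gave 1 (all genes 2.04%), PSMA7 (0.36, adjusted p = 0.0174), lost in 4 of 6 fits without 1 library, to adjusted p of 0.125. PIK3CA gave 4 (all genes 8.6%): PSMA7 (-0.73), PSMA3 (0.33), PSMC3 (0.35) and PSMD11 (-0.28). The last 3 calls were each lost in 4 or 5 of the 6 fits without 1 library, to adjusted p of up to 0.292.

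PSMB5 and PSMD4, a core and a cap subunit, were followed over all lines. Median PSMB5 levels over 12 libraries were 55.6 CPM in GFP, 55.9 in FAT1 and 84.6 in CDKN2A cells, and 66.4 in HCRED, 63.3 in NRF2, 68.1 in NRG1 and 70.0 in PIK3CA cells, with 66.6 in 11 FGFR1 libraries. PSMD4 was higher in both knockouts, at 0.37 each (adjusted p = 7.31e-07 in FAT1 and 6.1e-07 in CDKN2A), and was called in 0 of the 4 overexpression lines, with NRG1 at 0.16 (95% interval 0.024 to 0.30, adjusted p = 0.117). Over the 32 combinations, the SD of group means was largest for PSMA7 (0.45), PSMD10 (0.36) and PSMD2 (0.35) among the 42 members whose counts averaged 10 or more, and smallest for PSMC2 (0.13), PSMB2 (0.15) and PSMD6 (0.16), where the SD within groups was 0.16, 0.14 and 0.18.

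Genes that work with the proteasome were read from a fixed list of 25 with data. Under CSC 8 rose and 7 fell (8 and 6 with correction), under BaP 8 and 6 (7 and 2) and under NNK 8 and 8 (3 and 3), where 55.1, 51 and 51.8% of all genes were called as counted (32.1, 23.3 and 14.7% with correction). NPLOC4, a cofactor of the VCP unfoldase, rose by 0.44 under CSC (SE 0.038, adjusted p = 2.49e-20) and by 0.19 after correction. The deubiquitinase UCHL5 fell by 0.50 and, after correction, by 0.13, and the small lid subunit SEM1 fell by 0.46 and by 0.36. In NRF2 cells 4 of the 25 rose and 7 fell (all genes 22%, 9.98% higher and 12% lower). There NFE2L1, which encodes NRF1, was higher (0.25, adjusted p = 0.000104), and the 19S receptor ADRM1 was lower (-0.32, adjusted p = 0.00055). In CDKN2A knockout cells 8 rose and 11 fell (all genes 58.7%, 29.9% higher and 28.8% lower). UBB stood at 0.77 and UBQLN2, a shuttle of ubiquitinated proteins, at -0.70. Of 8 antigen presentation genes, 2 rose and 3 fell under CSC (1 and 1 with correction), 5 and 2 under BaP (5 and 0) and 2 and 2 under NNK (0 and 1). As counted, NQO1, a standard NRF2 target, was 1.37 higher under CSC, 1.05 under BaP and 0.39 under NNK, and 0.24 higher in NRF2 than in HCRED cells (adjusted p = 0.00253).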

How the data were processed

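SFL RNA-seq, a multiplexed rRNA-depletion protocol with pooled samples, was run on 95 libraries of AALE cells. The authors deposited raw read counts per gene symbol, 1 file per library, made by trimming single-end reads with Cutadapt (1.12), aligning to hg19 with STAR (2.5.2b) and counting in RefSeq genes with featureCounts. The strand setting was not given in the sources used here, nor was the treatment of reads shared by gene copies.

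Counts of genes with a mean above 1 were scaled by TMM and tested with limma-voom (limma 3.58.1, edgeR 4.0.16, R 4.3.3), 2-sided, with Benjamini-Hochberg adjustment over all genes tested and a threshold of 0.05. Contrasts over all genotypes or treatments came from 1 fit of genotype and treatment to the 95 libraries, tests of whether a response differed between genotypes from a fit with a mean per combination, and 3 against 3 contrasts from those 6 libraries alone. CPM is normalised, except where stated and for levels per kilobase, which used library totals alone. Log2 CPM used a prior count of 2. GC correction removed a loess trend (span 0.3) on transcript GC content and length, known for 24309 symbols (86.9%), from each library. Gene positions came from GENCODE on hg19 and promoters from RefSeq. Scripts were tested on simulated data. The alternatives were DESeq2 (1.42.0) and edgeR tests, size factors, other filters, a replicate block, deeper libraries only, and fits without a replicate, genotype or treatment.

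The members, gene lists and tests were chosen with earlier results of these data known. Named were PSMB5, PSMD4, PSME1, PSME2 and the beta subunits PSMB8 to PSMB10, the 3 called members with the largest rise and fall per contrast whose mean count was at least 10, those with the extreme levels and spreads, and all in counts of 5 or fewer. Other genes named were chosen after their values were seen. Whether replicate numbers pair the libraries is not known, and the main fits did not use them as pairs.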

Additional observations from a re-analysis of the deposited data

How the results depend on the processing

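GC correction turned PSMA5 (-0.12 to 0.17) and PSMD12 (-0.22 to 0.078) under CSC, and PSMD12 (-0.091 to 0.16) and PSME4 (-0.079 to 0.088) under BaP, from lower to higher calls. In refits of the members with the largest differences 1520 values kept their side of the threshold and 162 lost the call, and 325 recomputed counts stayed within 1.5 times the reported one while 58 did not. The cause of the changes was not tested. With GC correction the members called were 17 for BaP, 6 for NNK, 9 for BaP against NNK and 3 for CSC in HCRED cells. DESeq2 gave, in DMSO, 5 for FAT1, 1 for NRF2, 0 for FGFR1, 0 for NRG1 and 1 for PIK3CA, and for CSC 3 in HCRED and 0 in NRF2 cells. A fit of all 95 libraries together gave 1 for NRF2 and 2 for PIK3CA in DMSO and 1 for CSC in NRF2 cells. With no filter beyond 1 read there were 6 for FGFR1 and 1 for PIK3CA in DMSO, with libraries of at least 500000 reads 6 for FGFR1, and with only the genes of largest median absolute deviation 6 and 1 for CSC in HCRED and NRF2 cells. With replicate number as a block, NRF2 in DMSO gave 6 and CSC over all genotypes 30. Deviations of same-numbered libraries correlated at -0.044 to 0.089 in the 3 against 3 contrasts. Chi-square per degree of freedom between replicates had a median of 1.356 and reached 2.823 for NRG1 cells with BaP. Most replicates thus differed little beyond counting noise, so these correlations cannot decide whether the numbers pair the samples.

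Leaving out 1 replicate, genotype, treatment or library gave 4 to 9 members for NRF2, 3 to 9 for FGFR1, 4 to 8 for NRG1, 11 to 19 for PIK3CA, 3 to 14 for BaP against NNK and 4 to 8 for CSC against BaP. In DMSO it gave 8 to 15 for FAT1, 1 to 4 for NRF2, 0 to 1 for NRG1 and 1 to 3 for PIK3CA, and for CSC 4 to 9 in HCRED and 1 to 2 in NRF2 cells. CSC stayed at 23 to 29, BaP at 18 to 26, NNK at 21 to 27, FAT1 at 18 to 21 and CDKN2A at 21 to 28. A lone library left in a group was assumed to vary like the others. The contrasts between chemicals, the uncorrected fit on genes of known GC content and the neighbour medians were chosen after seeing the data. Low counts of PSMB10, PSMC1 and PSMG4 limit their precision.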
